A study of Mus musculus with 13 samples.

Results

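Common lymphoid progenitors (CLPs) from the BM of Notch1+/- mice were compared with WT CLPs by RNA sequencing. The comparison covered 3178 of the 24972 genes listed, namely those at 1 TPM (transcripts scaled to a fixed total per library) or more in at least 5 of 10 libraries. It used 10 of the 13 libraries of the series, 1 per mouse, with 5 from Notch1+/- mice (libraries 4, 5, 6, 12 and 13) and 5 from WT mice (libraries 1, 2, 3, 10 and 11), and values are given below in that order. The other 3 libraries were from Notch1+/dTAD mice, which lack the transactivation domain of NOTCH1 on 1 allele, and they entered only 1 alternative model. All mice were adult C57BL/6 of both sexes, 6 to 12 weeks old and otherwise untreated. Notch1+/- mice carry a germline deletion of 1 Notch1 allele, backcrossed for more than 10 generations, so niche cells and all other BM cells of these mice carry it as well. CLPs were sorted as live (DAPI-) CD127+ CD135+ cells that lacked lineage markers and had low Sca1 and low cKit. The number of cells per mouse is 4000 to 11000 in the study's methods and 4000000 to 11000000 in the labels.

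Notch receptors are cut by γ-secretase after they bind a ligand of the Delta or Jagged family on a neighboring cell. The released intracellular domain enters the nucleus, binds the DNA-binding factor RBPJ and recruits a Mastermind coactivator and the acetyltransferase p300 to turn on genes such as Hes1. In early lymphoid development NOTCH1 is the receptor that directs progenitors to the T lineage, while CLPs in the BM can still give rise to B, T and NK cells. The comparison of Notch1+/- with WT asks which transcripts of the CLP depend on having both copies of the receptor gene.

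Depth per library is unknown because the table holds TPM and no counts, and the libraries were built from 1 ng of RNA with 22 PCR cycles and a 3′ tag kit that keeps strand. Of the 3178 genes, 2364 (74.4%) were listed at 0 in at least 1 library, including genes used by every cell, so a 0 is given here only as listed. WT libraries had 3179 to 3855 genes at 1 TPM or more and Notch1+/- libraries had 2818 to 4736 (exact permutation test, 2-sided, p = 0.556, adjusted p = 0.722 over 4 measures). Across the 3178 genes the median Spearman rho between 2 libraries was 0.385 within WT, 0.37 within Notch1+/- and 0.365 between genotypes. Xist, the transcript of the inactive X, was at 187 and 172 TPM in WT libraries 10 and 11, at 95.6 TPM in Notch1+/- library 12 and at most 0.688 TPM elsewhere, while the Y-linked genes Ddx3y, Eif2s3y, Kdm5d and Uty exceeded 1 TPM only in libraries numbered 6 or lower. Sex markers thus went with library number, except that Notch1+/- library 13 had neither Xist nor a Y-linked gene at 1 TPM. With a term for library number 0 genes passed the adjusted threshold.

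No gene had an adjusted p under 0.05 (0.0% of 3178, limma on log2(TPM + 1) with Benjamini-Hochberg adjustment), and the smallest adjusted p was 0.341. Before adjustment 170 genes (5.35%) passed the 0.05 threshold, which by itself gives 158.9. These were 85 higher (2.67%) and 85 lower (2.67%) in Notch1+/- CLPs. The values of all 5 Notch1+/- libraries lay on 1 side of all 5 WT libraries for 25 genes (0.787%). Of these, 13 were higher (0.409%) and 12 lower (0.378%). For a gene without tied values, a random split parts the libraries this way with probability 0.00794 (exact permutation test, 252 splits). The share without overlap is close to that, so non-overlap alone does not set these genes apart from chance. The median log2 fold change (FC), the difference between mean log2(TPM + 1) of Notch1+/- and of WT, was 0.06 over all genes, with 1635 genes above 0 and 1543 below. Everything below is therefore description: "called" means an unadjusted p under 0.05, and none of the genes called passed the adjusted threshold. Each p sets a difference against the spread between libraries, 1 per mouse. In that spread, variation between mice and technical variation between libraries cannot be told apart.

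How far a gene can be read depended on how steadily it was listed. The median 95% interval reached 3.43 on the log2 scale to either side of the FC, and only 56 genes (1.76%) had an interval wholly within a 2-fold change up or down. Among the 617 genes at 1 TPM or more in all 10 libraries, the median SE of the log2 FC was 0.875 and 2.27% were called. Among the 740 genes that reached 1 TPM in exactly 5 libraries, the median SE was 1.66 and 8.11% were called. The 3 genes with the narrowest intervals were all ribosomal protein genes. Rps29 had a log2 FC of -0.27 (95% interval -0.59 to 0.04), Rplp1 of 0.11 (-0.29 to 0.52) and Rps9 of 0.42 (-0.0028 to 0.84). A p that misses the threshold does not show that a gene was equal in both genotypes, and for most genes here a change of several fold in either direction lies within the interval.

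**Figure D1:**
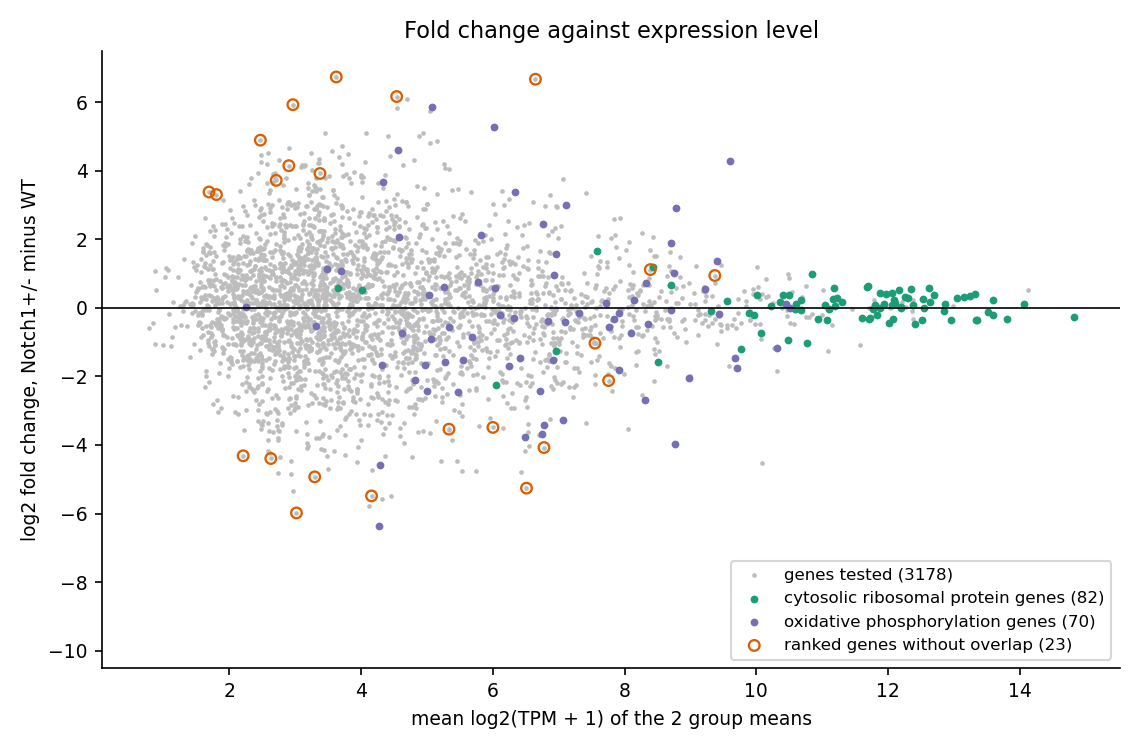
Log2 FC of Notch1+/- minus WT (vertical axis) against the mean of the 2 group means of log2(TPM + 1) (horizontal axis), 1 point per gene tested, with 82 cytosolic ribosomal protein genes, 70 oxidative phosphorylation genes and 23 ranked genes without overlap marked. FC values spread widely for genes of low level and narrow around 0 for the ribosomal protein genes at the right.

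The 12 highest-ranked genes that were higher in every Notch1+/- library encode proteins of translation, protein turnover, chromosomes and RNA handling. Mrpl14 (chr17:45686322-45698495, plus strand, mm10), a protein of the large mitochondrial ribosomal subunit, was at 369, 291, 21.3, 131 and 103 TPM in Notch1+/- and at 0, 0, 0, 1.41 and 0 TPM in WT. It was listed at or near 0 in WT and was present in every Notch1+/- library, with a log2 FC of 6.74 (SE 1.39, adjusted p = 0.341). Mcts1 (chrX:38600578-38613426, plus strand), a factor for translation reinitiation, was at 1.56, 81.4, 62.5, 192 and 321 TPM in Notch1+/- and listed at 0 in all 5 WT libraries (adjusted p = 0.507). Btaf1 (chr19:36926079-37012752, plus strand), an ATPase that removes TATA-binding protein from DNA, was at 25.8, 22.2, 8.75, 3.09 and 3.94 TPM in Notch1+/- and likewise listed at 0 in all WT libraries (adjusted p = 0.507). These were the only 2 genes at 0 throughout 1 genotype and at 1 TPM or more throughout the other.

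Ubiquitin ligase parts stood among the ranked genes as well. Fem1b, a substrate receptor of a cullin 2 ligase, was at 34.9, 70.8, 57.7, 10.6 and 13.3 TPM in Notch1+/- and at 0 TPM in WT except 0.0883 in library 10 (log2 FC 4.89, SE 1.12, adjusted p = 0.507). Cul4b (chrX:38533274-38576196, minus strand), the scaffold of another cullin ligase, was at 14.7, 5.87, 1.87, 23.9 and 19.7 TPM in Notch1+/- and at or under 0.547 TPM in WT (log2 FC 3.31, SE 0.92, adjusted p = 0.507). Uvrag, a subunit of the lipid kinase complex of autophagy, had a log2 FC of 3.72 (SE 1.26) with 8.46 to 57.5 TPM against 0 to 7.54. Both ligase genes and Uvrag were thus low or listed at 0 in WT and moderate in every Notch1+/- library.

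Sarnp, which acts in mRNA export, was at 1073, 803, 1133, 1372 and 782 TPM in Notch1+/- and at 82.9, 0, 0.905, 602 and 0 TPM in WT (log2 FC 6.67, SE 1.61, adjusted p = 0.507). WT library 10 came close to the lowest Notch1+/- library, so the difference is set mainly by the other 4 WT libraries. Cenpm (chr15:82233779-82244748, minus strand), a centromere protein, was at 315, 189, 562, 101 and 85 TPM against 0, 0, 74.8, 1.06 and 0 (log2 FC 6.16, SE 1.52, adjusted p = 0.507). Its groups were likewise parted by a narrow gap set by WT library 3. The zinc finger genes Zfp113 (log2 FC 4.15, SE 1.28) and Zfp445 (3.92, SE 1.43) completed the low-level genes of the set. Fcf1, a processing factor of 18S rRNA, and Luc7l3, a splicing factor associated with U1 snRNP, were high in both genotypes. Fcf1 was at 377 to 703 TPM in WT and 708 to 1144 in Notch1+/- (log2 FC 0.94, SE 0.45, adjusted p = 0.91), and Luc7l3 at 121 to 363 against 419 to 789 (1.12, SE 0.60, adjusted p = 0.929). Neither of these was called, although their groups did not overlap. Sarnp shares strand and position with Dnajc14 in the annotation, so reads of the pair may not be separable.

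Among the genes lower in every Notch1+/- library, proteins of signaling, mitosis and protein folding were found. Stk17b (chr1:53755506-53785224, minus strand), a kinase of the death-associated family that is abundant in lymphocytes, was at 39.6, 72.1, 87.1, 75.2 and 54.4 TPM in WT. In Notch1+/- it was listed at 0 in 4 libraries and at 0.0976 TPM in library 13 (log2 FC -5.98, SE 1.22, adjusted p = 0.341), and the groups lay far apart. Gnas (chr2:174284320-174346744, plus strand), the stimulatory G protein α-subunit, was at 479, 618, 510.4, 319 and 378 TPM in WT and at 8.58, 6.47, 6.46, 106 and 237 TPM in Notch1+/- (log2 FC -4.07, SE 1.11, adjusted p = 0.507). Its Notch1+/- libraries split by number, with 4, 5 and 6 lower than 12 and 13. Ppp1r18, a regulator of protein phosphatase 1, was steady in WT at 119 to 147 TPM and was at 0 to 59.4 TPM in Notch1+/- (log2 FC -3.54, SE 1.33).

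Ckap2l (chr2:129268210-129297212, minus strand), a spindle protein of dividing progenitors, was at 56.9, 213, 96.1, 116 and 171 TPM in WT and at 0, 4.61, 19.8, 0 and 0.159 in Notch1+/- (log2 FC -5.48, SE 1.42, adjusted p = 0.507). Nsmce4a, a subunit of the SMC5/6 complex that maintains chromosomes, was at 12.9 to 142 TPM in WT and 0 to 2.73 in Notch1+/- (-4.93, SE 1.34). It overlaps Fgfr2 on the same strand in the annotation, so reads of the pair may not be separable. Pdcd5, a gene associated with apoptosis, was at 184 to 1335 TPM against 0 to 179 (-5.26, SE 1.41), and its groups almost touched. Prpf39, a splicing factor of U1 snRNP, was at 12.8 to 58.8 TPM against 0 to 3.27 (-4.39, SE 1.17). Paip2, an inhibitor of poly(A)-binding protein, was listed above 0 in all 10 libraries, at 347 to 649.7 TPM in WT and 45.7 to 149 in Notch1+/- (-2.12, SE 0.68, adjusted p = 0.756). Cct2, a subunit of the cytosolic chaperonin, was at 129.7 to 329.9 TPM against 1.01 to 94.8 (-3.49, SE 1.18). Vcp, the ATPase that extracts ubiquitylated proteins, was at 206 to 379.9 TPM against 84.3 to 164 (-1.03, SE 0.68, adjusted p = 0.978) and was not called.

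Insl3 (chr8:71689214-71690575, plus strand), a hormone known from Leydig cells of the testis, was at 1.15, 26.2, 39.2, 76.5 and 19.5 TPM in WT. It was listed at 0 in 4 Notch1+/- libraries and at 0.193 TPM in library 13 (log2 FC -4.32, SE 1.15, adjusted p = 0.507). Insl3 lies on the same strand within the annotated span of the cytokine receptor kinase Jak3, so signal assigned to it may not be separable from Jak3. Jak3 itself was above 0 in 0 of 5 WT and 1 of 5 Notch1+/- libraries.

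**Figure D2:**
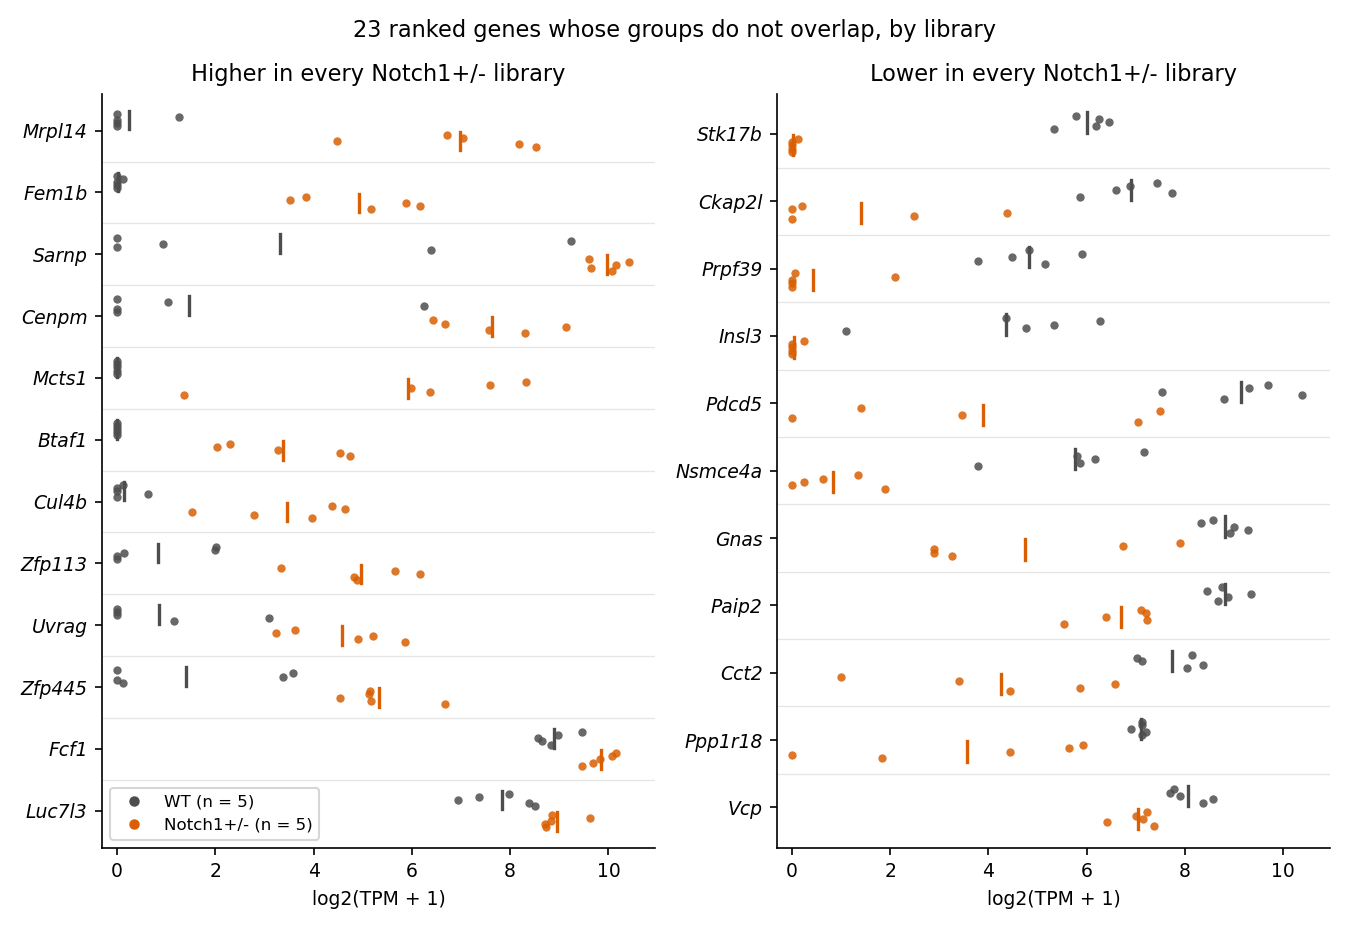
Log2(TPM + 1) (horizontal axis) of 23 of the 24 ranked genes whose groups do not overlap, 12 higher and 11 lower in Notch1+/-, with 1 point per library (gray, WT, n = 5; orange, Notch1+/-, n = 5) and vertical ticks at the group means. Mrpl14, Fem1b, Mcts1 and Btaf1 lie near 0 in WT, Stk17b and Insl3 lie near 0 in Notch1+/-, and Fcf1, Luc7l3 and Vcp are well above 0 in every library.

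The deleted gene came first among the Notch genes. Notch1 (chr2:26457903-26516663, minus strand) was at 34.8, 35.1, 78.5, 25.8 and 9.28 TPM in Notch1+/- CLPs and at 18.5, 25.6, 13.8, 0 and 8.84 TPM in WT. The groups overlapped and the mean was not lower in Notch1+/- (log2 FC 1.71, SE 1.43, 95% interval -1.35 to 4.77, adjusted p = 0.993). Without WT library 10, listed at 0, the log2 FC was 0.9. A 3′ tag of Notch1 counts any transcript that still ends at the normal 3′ end, so the level does not show whether the deleted allele was transcribed. Notch2 was above 0 in 3 of 5 WT and 4 of 5 Notch1+/- libraries and did not meet the filter. Notch3 and Notch4 and the ligands Dll1, Dll3, Dll4 and Jag1 were listed at 0 in all 10 libraries.

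Of 26 genes for cleavage, glycosylation and turnover of the receptor, 9 met the filter and 0 were called, with a median log2 FC of 0.51. Adam17, a protease of the first cut, had a log2 FC of -0.61 (SE 1.84). The γ-secretase subunits Aph1a (-0.19, SE 0.82) and Psenen (0.51, SE 1.59) were listed in most libraries of both genotypes. Fbxw7, the ligase subunit that marks the intracellular domain for degradation, had a log2 FC of 2.12 (SE 1.71), and Dtx3, a Deltex family ligase, of 2.53 (SE 1.51).

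In the nucleus, 14 of 19 genes of the Notch complex and its corepressors met the filter. Of these, 1 was called (7.14%, beside 5.35% of all genes). Ctbp1, a corepressor, was at 1.66, 89.9, 185, 121 and 54 TPM in WT and at 59.3, 0, 0, 0 and 0.584 TPM in Notch1+/- (log2 FC -4.32, SE 1.72, adjusted p = 0.853). WT library 1 and Notch1+/- library 4 each lay within the other group, so the groups overlapped. Rbpj, the DNA-binding partner of NOTCH1, was at 0 to 37.1 TPM in WT and 0.463 to 38.4 in Notch1+/- (1.50, SE 1.56). Ep300, which encodes p300, was at 0 to 4.86 TPM against 2.68 to 10.1 (1.89, SE 0.98, adjusted p = 0.921). The related acetyltransferase gene Crebbp had a log2 FC of 1.05 (SE 1.84).

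Of 24 Notch target genes 5 met the filter, 1 with a log2 FC above 0 and 4 below, and 0 were called. Their median log2 FC of -1.73 is that of Cdkn1a, the middle of the 5. It was -0.82 without Notch1+/- library 5, -0.99 without library 6 and -0.34 over all target genes above 0 TPM. Hes1 (chr16:30064384-30067796, plus strand), the best known direct target, was at 50.9, 79.4, 0.782, 0 and 6.92 TPM in Notch1+/- and 17.3, 2.73, 27.9, 32.2 and 0 TPM in WT (log2 FC -0.03, SE 1.70). Notch1+/- libraries 4 and 5 lay above every WT library and the other 3 within the WT range, and a direction cannot be read. Il21r, a cytokine receptor gene, was at 190.5, 0, 0, 44.6 and 280 TPM in Notch1+/- and 223, 15.1, 125, 21.6 and 295 TPM in WT (log2 FC -2.06, SE 1.79, adjusted p = 0.993). It differed between genotypes mainly by being listed at 0 in Notch1+/- libraries 5 and 6. Deptor, an inhibitor of mTOR, was listed at 0 in all 5 Notch1+/- libraries and in 3 WT libraries. It was at 45.5 and 16.1 TPM in WT libraries 10 and 11 (exact permutation test, 2-sided, p = 0.444). With both values above 0 in WT, this test could not give a smaller p, so it cannot decide whether Deptor differed. Ccnd1, the cyclin of G1, had a log2 FC of -2.61 (SE 1.89) and Igf1r of 0.04 (SE 1.35).

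The genes of the sort gate and of lymphoid priming were listed unevenly. Of 4 gate genes 3 met the filter, all 3 with a log2 FC below 0, and 0 were called. The gate genes summed to 155.4 to 472 TPM in WT and 5.21 to 809.8 TPM in Notch1+/-. Gate transcripts were thus low in at least 1 Notch1+/- library, and identity rests on the sort. Flt3, which encodes CD135, was at 40.6 to 282 TPM in WT and 5.21 to 281 in Notch1+/- (log2 FC -0.47, SE 1.12), and Il7r, which encodes CD127, at 1.07 to 184 against 0 to 109.7 (-0.40, SE 1.71). Dntt, the terminal transferase of antigen receptor rearrangement, was among the most steadily measured lymphoid genes, at 5238, 7107, 9616, 4112 and 2095 TPM in Notch1+/- and 7459, 3482, 4083, 5007 and 5060 TPM in WT. Its log2 FC of 0.04 had a 95% interval of -0.73 to 0.81, narrower than a 2-fold change in either direction. Ly6d, which marks the CLPs that lean to the B lineage, was at 194 to 1538 TPM in Notch1+/- and 271 to 2559 in WT (-0.50, SE 0.72). Rag1, a subunit of the recombinase, had a log2 FC of 0.00 (SE 1.67). Of 13 lymphoid priming genes 12 met the filter and 0 were called, with a median log2 FC of 0.20.

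Of 54 transcription factors of lymphoid progenitors, 31 met the filter and 1 was called (3.23%, beside 5.35% of all genes). The log2 FC was above 0 for 14 of the 31 and below 0 for 17, from -3.01 to 3.63 with a median of -0.16. Meis1, a homeobox factor of stem cells and early progenitors, was at 101, 54.4, 34.1, 15.1 and 9.63 TPM in Notch1+/- and 0, 0, 0, 1.93 and 38.3 TPM in WT (log2 FC 3.63, SE 1.51, adjusted p = 0.864). Only WT library 11 reached the range of the Notch1+/- libraries. The ETS factors Erg (3.08, SE 1.89, adjusted p = 0.969) and Fli1 (2.74, SE 1.54, adjusted p = 0.967), which act in the same early progenitors, were not called. Of the factors with steadier values, Irf8, a factor of myeloid and lymphoid fate, was at 320.1 to 919 TPM in Notch1+/- and 300.5 to 1129 in WT (-0.19, SE 0.54) and Bcl11a, needed for lymphoid development, at 182 to 546 against 119.7 to 417 (0.52, SE 0.64), and both intervals reached past a 2-fold change. The B lineage factors Ebf1 (-1.51, SE 1.49) and Pax5 (1.38, SE 1.54) had opposite signs and wide intervals.

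The cytokine receptor and JAK-STAT list held 52 genes, of which 14 met the filter and 0 were called. Of these 14 genes, 12 had a log2 FC below 0 and the list median was -1.03, beside 0.06 over all genes. The receptor genes with the lowest values were Ifnar1 (-2.31, SE 1.59), Il21r, Il18r1 (-1.97, SE 1.98), Csf2ra (-1.89, SE 1.47) and Crlf2, which encodes the TSLP receptor (-1.26, SE 1.50). The signal transducer Stat3 had a log2 FC of -2.09 (SE 1.92), and Il2rg, the common γ chain, of 1.62 (SE 2.48). The list median ranged from -1.57 to -0.738 when each library was left out in turn. Each receptor's own interval included 0. In bulk RNA, fewer cells with a transcript and less of it per cell cannot be told apart.

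Of 28 homing and adhesion genes 12 met the filter and 1 was called (8.33%, beside 5.35% of all genes). Cd52, a small surface glycoprotein of lymphocytes, was at 671, 2.04, 295, 226 and 251 TPM in Notch1+/- and 1472, 647, 1054, 765 and 292 TPM in WT (log2 FC -2.54, SE 1.19, adjusted p = 0.91). All but 1 Notch1+/- library lay below 4 of the 5 WT libraries, and the unadjusted p was only just under 0.05. Cd37, a tetraspanin of B cells, was at 0 to 3.79 TPM in Notch1+/- and 0 to 609.8 in WT (-3.59, SE 1.85, adjusted p = 0.921). Cxcr4, the receptor for CXCL12 in the BM niche, had a log2 FC of 0.48 (SE 1.74).

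No marker gene of more mature or other cells was called. Of 28 T and NK lineage genes 10 were above 0 in at least 1 library, and only Lck met the filter (1.08, SE 2.18). The summed TPM of the T and NK list was 13.15 to 1417 in WT and 0 to 560.2 in Notch1+/-. Cd3e, Cd3g, Cd8a, Cd5 and Thy1 were listed at 0 in all 10 libraries. Of 21 early B lineage genes 8 met the filter and 0 were called, with a median of -1.12 that includes Vpreb1 (-1.17, SE 2.28) and Blnk (0.41, SE 1.31). Of 23 myeloid genes 4 met the filter, all 4 with a log2 FC below 0 (median -0.99, lowest -4.32), and 0 were called. With single libraries left out their median ran from -2.15 to -0.07. S100a8, a granulocyte protein, was at 0 to 1803 TPM in WT and 0 to 1037 in Notch1+/-, and Mpo, an enzyme of granulocyte precursors, at 0.312 to 175 against 0 to 240.1. Of 13 dendritic and plasma cell genes 8 met the filter and 0 were called. No erythroid, megakaryocyte or stromal gene met the filter, with 3 of 16, 1 of 10 and 3 of 7 above 0 in any library. The summed TPM of the myeloid genes was 436 to 2550 in WT and 450.3 to 1512 in Notch1+/-, so myeloid transcripts were present in every library, and their part in the results was not tested.

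**Figure D3:**
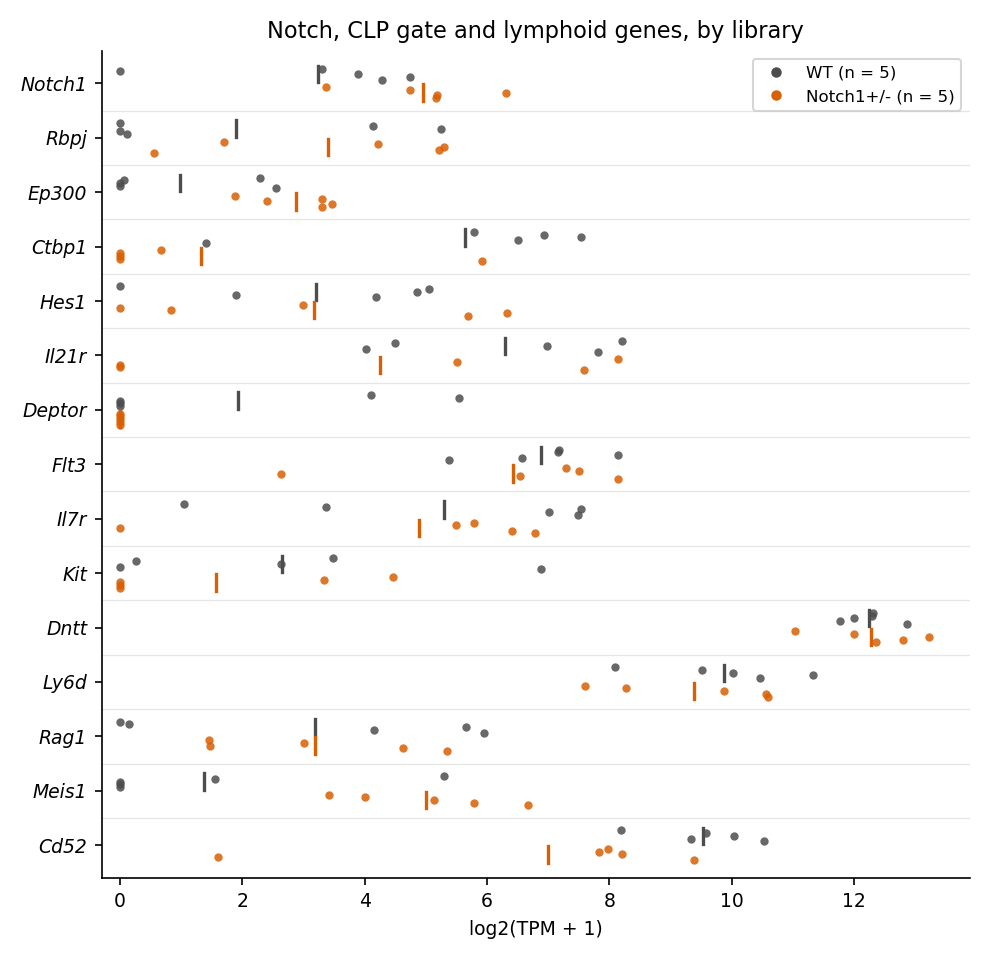
Log2(TPM + 1) (horizontal axis) of Notch, sort gate, lymphoid and called surface or factor genes, with 1 point per library (gray, WT, n = 5; orange, Notch1+/-, n = 5) and vertical ticks at the group means. Dntt is high and even in both genotypes (log2 FC 0.04), Notch1 overlaps between them, and Meis1, Ctbp1 and Cd52 are the called genes shown.

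Over all lists, those of Notch and lymphoid genes included, 1194 tested genes fell in at least 1 list and 68 of these (5.7%) were called, close to the 5.35% of all genes tested. Of 47 lists with a tested member, 18 had none called. The remaining 102 called genes fell in no list.

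Oxidative phosphorylation was the list of more than 40 genes with the greatest share called. Of 88 genes 70 met the filter and 12 were called (17.1%, beside 5.35% of all genes), 7 higher and 5 lower, with a list median of -0.30. The 7 higher genes came from complexes I, IV and V. Ndufb5, an accessory subunit of complex I, was at 563, 361, 174, 194 and 164 TPM in Notch1+/- and 0.745, 0, 0.937, 492 and 0 TPM in WT (log2 FC 5.87, SE 1.67, adjusted p = 0.562). Ndufa10, of the same complex, was at 204 to 796 TPM in Notch1+/- and at 332, 0, 357, 0 and 0 TPM in WT (5.27, SE 1.78, adjusted p = 0.756). Atp5k, a subunit of the ATP synthase, was at 1604 to 6414 TPM in Notch1+/- and ranged from 0 to 11702 in WT (4.30, SE 1.83). In each of these 3 genes at least 1 WT library lay within the Notch1+/- range.

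The 5 genes of the list lower in Notch1+/- came from complexes I, III, IV and V. Ndufv3, of the NADH-binding arm of complex I, was at 2.36, 669, 175, 1632 and 254 TPM in WT and was listed at 0 in 4 Notch1+/- libraries with 42.3 TPM in library 13 (log2 FC -6.36, SE 1.84, adjusted p = 0.588). Cox6b2, an isoform of a cytochrome oxidase subunit known from testis, had a log2 FC of -4.57 (SE 1.88). Usmg5, of the ATP synthase, was at 373 to 3683 TPM in WT and at 3109, 0, 6.09, 606 and 1209 TPM in Notch1+/- (-3.98, SE 1.79). Uqcrb, of complex III, was steady in WT at 338 to 528 TPM and at 251, 0, 0, 265 and 358 TPM in Notch1+/- (-3.69, SE 1.66), so its call rests on the 0 values of libraries 5 and 6. Both directions occurred within complexes I, IV and V, with 3 higher and 1 lower of 29 genes, 1 and 1 of 13, and 3 and 2 of 17. None of the 70 genes was without overlap, and with single libraries left out the number called ranged from 5, without Notch1+/- library 6, to 15, without Notch1+/- library 4.

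**Figure D4:**
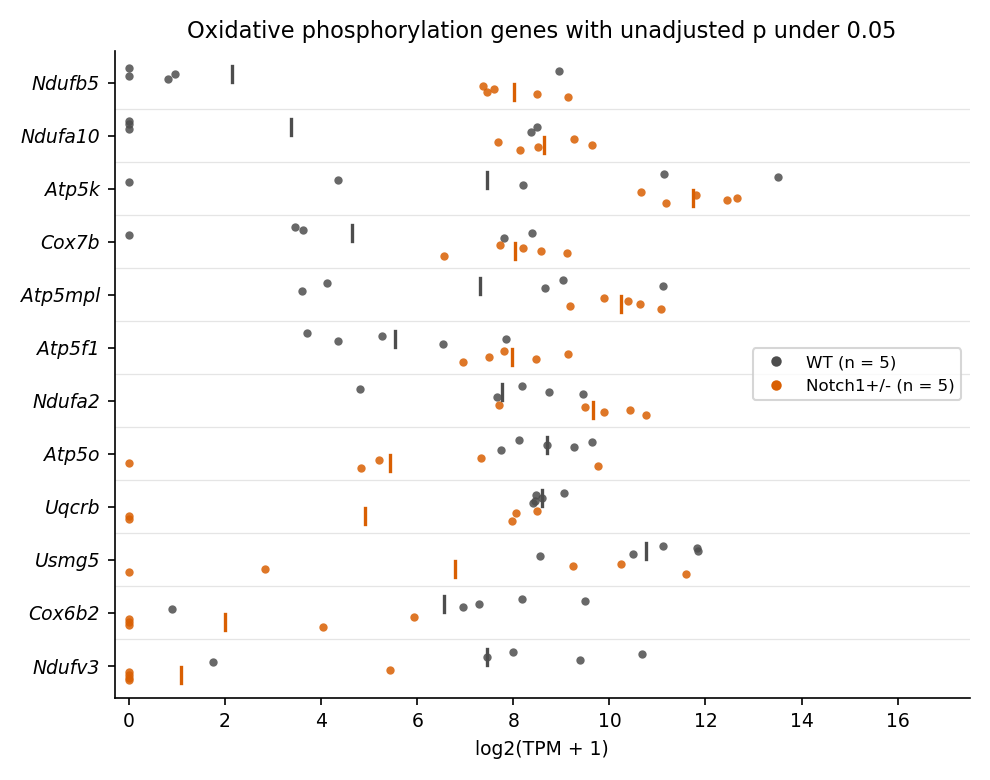
Log2(TPM + 1) (horizontal axis) of the 12 oxidative phosphorylation genes with an unadjusted p under 0.05, with 1 point per library (gray, WT, n = 5; orange, Notch1+/-, n = 5) and vertical ticks at the group means. The upper 7 genes have higher means in Notch1+/-, the lower 5 have lower means, and single libraries at 0 set many of the gaps.

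The mitochondrial ribosome and import lists had few calls. Of 79 genes named as mitochondrial ribosomal proteins 28 met the filter, and Mrpl14 and Mrps36 were called higher (7.14%, beside 5.35% of all genes). The name alone does not place the protein of Mrps36 in that ribosome. Mrps36 was at 271, 0, 51.3, 164 and 461 TPM in Notch1+/- and 0 TPM in WT except 21.7 in library 2 (log2 FC 5.10, SE 1.84). The list median was 0.88, and with single libraries left out it ran from 0.23 (without Notch1+/- library 13) to 1.79 (without WT library 1). Tomm6, a small subunit of the outer membrane translocase (4.26, SE 1.91), was the 1 call among 18 import genes (5.56%).

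Cytosolic ribosomal protein genes were the most steadily measured family. Of 88 genes 82 met the filter, the median SE was 0.315, the median log2 FC was 0.09, and 1 gene was called (1.22%). Their summed level was 341400 to 416900 TPM in Notch1+/- and 348400 to 431700 TPM in WT. Among 48 translation factors (4.17% called), Mcts1 and Eif2ak2, the kinase PKR that is also interferon-stimulated, were called higher. Eif2ak2 was at 20.2 to 269.8 TPM in Notch1+/- and listed at 0 in 4 WT libraries with 28.9 TPM in library 2 (4.51, SE 1.52). Eef1a1, the elongation factor with the highest level, had a log2 FC of -0.33 (SE 0.26).

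For protein turnover and folding, calls went both ways. Of 46 ubiquitin conjugation genes 4 were called higher and 2 lower (13.0%, beside 5.35% of all genes). Only 2 were called without WT library 2 or without Notch1+/- library 12, 3 without WT library 1 or 10 or Notch1+/- library 6, and 3 under quantile normalization or with a mean of at least 10 TPM. Cul4b, described above, was among the higher genes. Cul2, the scaffold that FEM1B binds, was lower, at 0 TPM in Notch1+/- except 2.34 in library 12 and at 0 to 24 TPM in WT (-2.80, SE 1.03, adjusted p = 0.82). Fem1b and Cul2, which encode parts of the same ligase, thus had opposite signs. Among 32 proteasome genes, Psma7 of the core particle was at 623 to 1022 TPM in Notch1+/- and 746 to 2290 in WT (-0.91, SE 0.42, adjusted p = 0.91), and Psmb7 had a log2 FC of -4.49 (SE 1.95), while the list median was 0.92 and was -0.15 without WT library 11. Of 55 chaperone genes, Cdc37, which loads kinases onto HSP90, was at 98.2 to 309 TPM in Notch1+/- and under 0.5 TPM in 4 WT libraries with 162 TPM in library 2 (6.09, SE 1.57, adjusted p = 0.507). The chaperonin subunits Cct2 and Tcp1 (-4.47, SE 1.54, adjusted p = 0.759) were both lower. Hsp90ab1, the most abundant chaperone, had a log2 FC of 0.06 (SE 0.24).

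In RNA processing, 98 of 125 spliceosome genes met the filter, with 2 called higher and 3 lower (5.1%) and a median of -0.02. Sarnp was joined by Lsm3, of the U6 snRNP, at 647 to 1544 TPM in Notch1+/- and 206 to 1342 in WT (log2 FC 1.25, SE 0.56). Prpf39 and Snrpc, both of U1 snRNP, were lower, and Snrpc was at 167 to 341 TPM in WT and at 1.29, 0, 0, 345 and 69.4 TPM in Notch1+/- (-4.74, SE 1.62, adjusted p = 0.756). Sf3b4, of U2 snRNP, had a log2 FC of -3.42 (SE 1.37).

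Of 469 zinc finger genes 47 met the filter, and Zfp113, Zfp984 (3.14, SE 1.12), Zfp445 and Zfp866 (4.16, SE 1.66) were called higher and 0 lower, with a list median of 0.73 (8.51% called, beside 5.35% of all genes in either direction). Of 66 chromatin regulators 0 were called higher and 4 lower (6.06%, beside 5.35% of all genes called in either direction). The list median was -0.18, and it was 0.03 without Notch1+/- library 6 and 0.04 without library 13. Ep400, an ATPase of the TIP60 complex, was at 27.6, 22.8, 47.7, 27.7 and 0.145 TPM in WT and 0 to 2.67 in Notch1+/- (log2 FC -3.57, SE 1.22, adjusted p = 0.756). Sin3a, the scaffold of a deacetylase complex (-3.73, SE 1.56), and Phc3, of a Polycomb complex (-2.30, SE 0.99), were called lower as well. With single libraries left out, 1 to 5 chromatin genes (1 without WT library 10) and 2 to 5 zinc finger genes (2 without Notch1+/- library 5 or 6) were called.

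Of 70 cell cycle and replication genes, 2 were called higher and 3 lower (7.14%, beside 5.35% of all genes), and 44 of the 70 had a log2 FC below 0 (median -0.53). With single libraries left out 2 to 5 were called, and the median was -0.10 without Notch1+/- library 5 and -0.27 without library 6. Prim2, a primase subunit, was at 158, 218, 582, 29 and 0 TPM in WT and listed at 0 in 4 Notch1+/- libraries with 52.4 TPM in library 13 (log2 FC -4.69, SE 1.93). Cks2, a binding partner of cyclin-dependent kinases, had a log2 FC of -4.07 (SE 1.73). Bub1, a kinase of the spindle checkpoint, and Kif22, a chromosome motor, were higher (3.62, SE 1.35, and 4.41, SE 1.99). Stmn1, the cycling gene with the highest level, had a log2 FC of -0.04 (SE 0.37). The 10 replication histone genes tested had 0 calls, as did 19 DNA repair genes. The summed TPM over all 54 genes of the DNA repair list was 1035 to 1854 in Notch1+/- and 1943 to 3377 in WT. It was the 1 list of 51 whose sums did not overlap. The median log2 FC of 0.09 covers only the 19 tested genes, so sum and median are of different sets.

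Apoptosis genes had 2 calls among 22 (9.09%, beside 5.35% of all genes), Stk17b and Pdcd5. Both were lower and without overlap, as were or were the reverse 0.787% of all genes in either direction. Counts in this paragraph rest on few genes and are not read as results about a family. Among 20 mitogen-activated protein kinase genes, 1 was called lower and 1 higher (10.0%). The higher was Ptpn7, a tyrosine phosphatase of hematopoietic cells that acts on these kinases. Ptpn7 was at 37.9 to 241 TPM in Notch1+/- and under 0.4 TPM in 4 WT libraries with 51.2 TPM in library 11 (log2 FC 4.71, SE 1.54, adjusted p = 0.756). Of 52 actin cytoskeleton genes (5.77% called), Rhoa (3.65, SE 1.59) and Arpc1a (4.50, SE 2.04) were called higher and Capzb (-3.72, SE 1.68) lower. Ldha, lactate dehydrogenase, was the 1 call among 8 glycolytic genes (12.5%). It was at 0, 0, 0, 33.9 and 13.5 TPM in Notch1+/- and 1.26, 101, 461, 452 and 140.1 TPM in WT (-4.74, SE 1.81). The 13 interferon-stimulated genes gave 1 call (7.69%), Eif2ak2, and the 12 immediate early and stress genes gave 1 (8.33%), Jund (2.38, SE 1.11). The 17 mTOR pathway genes, the 14 of MHC class I and the 29 of high mobility group and linker chromatin proteins gave 0.

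**Figure D5:**
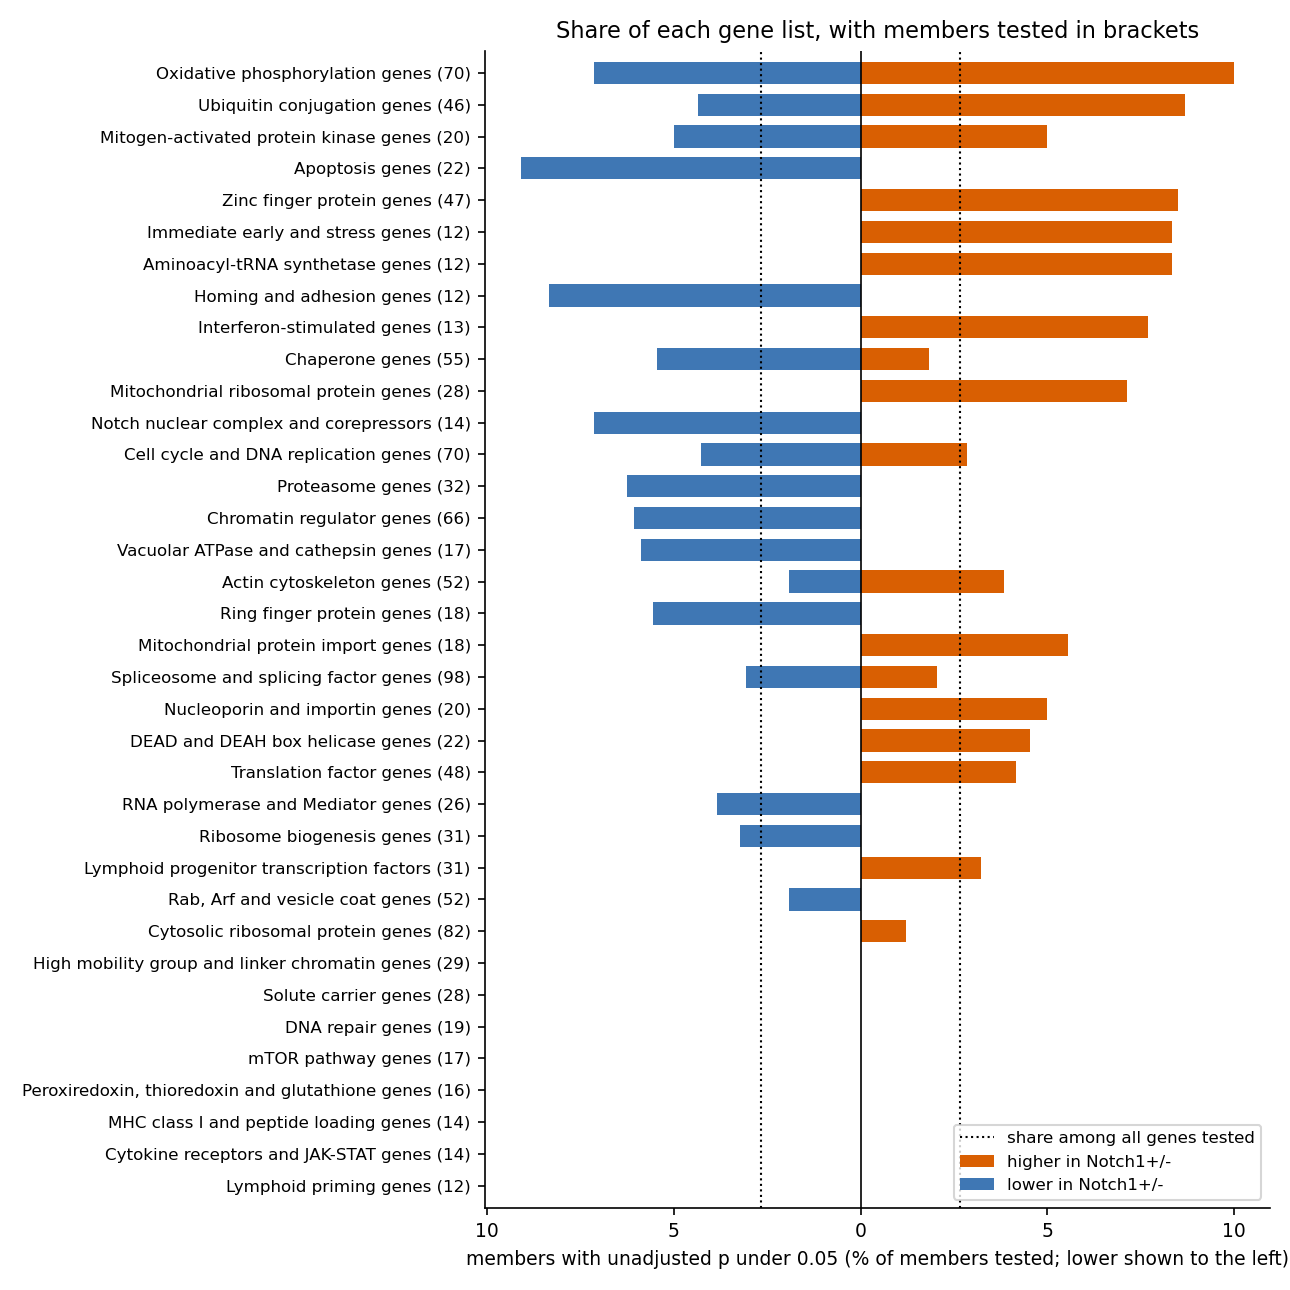
Share of the tested members of each functional list with an unadjusted p under 0.05 (horizontal axis, percent, higher in Notch1+/- to the right and lower to the left), with the number tested in brackets and dotted lines at the 2.67% of all genes called in each direction. Oxidative phosphorylation has 10.0% higher and 7.14% lower, and bars of lists with fewer than 20 genes stand for 1 gene each.

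By position, the share of genes called ran from 1.09% on chr14 to 9.18% on chrX (beside 5.35% of all genes), where 5 of 98 were higher and 4 lower. Within 10 Mb of Notch1, the region in which DNA linked to the targeted allele is most likely to remain after backcrossing, 47 genes were tested and 1 was called (2.13%). It was Ttf1, a termination factor of ribosomal RNA transcription. Cul4b and Mcts1 are neighbors on chrX, on opposite strands with 24381 bases and no annotated gene between them, and both were higher in every Notch1+/- library.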

How the data were processed

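The deposited table gives TPM per gene for BM CLPs of each mouse. Per the study's methods, the authors trimmed single 75-base reads of a 3′ tag library and aligned them to mm10 with STAR, and the tool and annotation behind the TPM are not given in the sources used here. Every column was matched to a sample (0 were not). Depth cannot be recovered from TPM, so no count test was run. Genes at 1 TPM or more in at least 5 of 10 libraries were tested on log2(TPM + 1), a scale that understates changes of low genes, with limma 3.58.1 in R 4.3.3 (moderated test with trend, 2-sided, Benjamini-Hochberg over 3178 genes), and the code was checked on simulated data. The libraries are separate mice of 1 library preparation. Single genes and library measures had exact permutation tests (252 splits, smallest p 0.00794, and larger for a gene at 0 in most libraries). Lists are given by counts and medians without a test. Named genes were the first 12 genes by p in each direction among genes without overlap, every tested member of the Notch, gate, lymphoid, cytokine and homing lists, the highest and up to 3 called members of each other list, and the 3 genes with the narrowest intervals. Xist, the Y-linked genes, Jak3, Lamp2, Ttf1, Notch2 to Notch4, Notch ligands and T cell markers outside this rule were named after their values were seen. So were Mpo and Cox6b2, Usmg5, Uqcrb, Cks2, Kif22, Sf3b4, Lsm3, Zfp866 and Phc3, called genes beyond the first 3 by p in their lists. The members and lists were chosen with earlier results of these data known. Positions are from GENCODE M21 (mm10), where 3166 of 3178 genes matched by symbol. Alternatives covered the pseudocount, the filter, the scaling, the variance model, library weights, a term for library numbers under 10, all 13 libraries in 1 model and each library left out. Some genes that meet the naming rule are not reported here, although they are included in the counts.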

Additional observations from a re-analysis of the deposited data

Results flagged for a closer look

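Among 68 groups of 5 libraries checked with Dixon's criterion, 4 held a library far from the rest, and chance gives about 1 in 20. Luc7l3 was at 789 TPM in Notch1+/- library 12, with the other 4 at 419 to 459.7 TPM. The summed TPM of the oxidative phosphorylation genes was 30230 in Notch1+/- library 6, the lowest of its genotype. The summed TPM of the apoptosis genes was 5961 in WT library 2, and that of the DEAD and DEAH box helicase genes was 4357 in WT library 3, each the highest of WT.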

How the results depend on the processing

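No gene passed the adjusted threshold under the alternatives run, except that limma without a trend in the variance gave 2, Mrpl14 and Stk17b. With each library left out in turn the adjusted count stayed at 0 and the unadjusted count was 121 to 159, and 37 to 58 genes were without overlap (most without WT library 2, fewest without Notch1+/- library 13), a count that grows by construction when fewer libraries are compared. The unadjusted count was 245 of 9641 genes with all genes above 0 TPM and 229 of 5288 with a mean of at least 10 TPM. Library weights changed the split of calls to 104 higher and 72 lower (59.1% higher, beside 50.0%). Quantile normalization moved the median log2 FC of all genes from 0.06 to -0.06. Of 471 values of the ranked genes under alternatives, 0 changed sign. The ranked genes were picked for groups without overlap, so leaving out a library cannot change their sign. The variance models leave the log2 FC as it is, so this count does not measure how robust the genes are. The cytokine receptor median stayed below 0 (-1.49 to -0.396), the called oxidative phosphorylation genes were 6 to 17, and the cause of these shifts was not tested. The difference in genes at 1 TPM or more between genotypes was 227.6, and it was -40.9 without Notch1+/- library 13 and 439 without Notch1+/- library 6. No paired analysis was possible because the library numbers are not shared between genotypes. The absence of counts limits what can be said of low genes.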

Other observations

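The 6 libraries numbered under 10 were also compared with the 4 numbered 10 and above, genotypes together. Of the genes tested, 34 (1.07%) did not overlap, 22 higher and 12 lower in the later numbers. Any split into 6 and 4 libraries parts some genes by chance, and whether 34 exceeds that number was not tested. Ly6d was at 194 to 727 TPM in the later libraries and 933 to 2559 TPM in the earlier ones. Eef2, the elongation factor for translocation, was at 763 to 1305 TPM against 1559 to 3300. Cst3, an inhibitor of cysteine proteases, was at 642 to 995 TPM against 38.8 to 563, and Brk1, of the WAVE complex for actin assembly, at 116 to 522 TPM against 0 to 1.21. These genes were chosen after their values were seen, the later libraries also differ in sex markers, and number, sex and any date of collection cannot be told apart.

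Lamp2, a lysosomal membrane protein encoded near Cul4b on chrX with 76819 bases and 1 annotated gene between them, was at 0.962, 0, 0.311, 1.65 and 15.5 TPM in Notch1+/- and 188, 34.1, 51.8, 5.13 and 87.3 TPM in WT (log2 FC -4.14, SE 1.50, adjusted p = 0.82, limma). Cul4b and Mcts1 beyond it were higher, so 3 genes in a short stretch were called with both signs.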
